A study of Homo sapiens with 30 samples.

Results

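The 45 interferon-stimulated genes described here are genes that type I interferon switches on in many human cells. They were chosen by symbol, and their values are the rows of the deposited expression tables of 2 human multiple myeloma lines, OPM2 and Delta47. Multiple myeloma is a cancer of plasma cells. The tables held 18159 genes between them, 16407 for OPM2 and 17286 for Delta47. All 45 members had a row in Delta47 and 43 had one in OPM2, where HERC5 and CMPK2 had none.

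In both lines FOXM1, a transcription factor gene of the cell cycle, had been edited with Cas9 ribonucleoprotein aimed at exon 2, and single clones were grown out. The OPM2 groups were the knockout clones KO1 and KO2, KO1 cells carrying an empty vector (KO1EV), KO1 cells carrying a vector for the FOXM1c isoform (KO1R), and unedited cells (WT). The Delta47 groups were the knockout clones KO1 and KO2, KO2 cells with the FOXM1c vector (KO2R), and unedited WT. A clone number does not link the lines. Each group had 3 libraries, and 27 of the 30 libraries in the series were used. The Delta47 empty-vector group was not analysed here. The vectors came by lentivirus and the cells were sorted on green fluorescent protein, so in Delta47 the FOXM1c vector, the infection and the sort cannot be told apart. Each knockout group was 1 clone, so the edit and the clone cannot be told apart either. The labels do not say whether the 3 libraries of a group came from separate cultures, and the p-values then measure only the spread between these libraries, which may be technical.

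FOXM1 was measured in every library. In Delta47 it had 46.1, 49.8 and 48.0 in KO1, 47.1, 46.1 and 45.35 in KO2 and 94.4, 102.4 and 101.3 in KO2R, against 87.1, 88.8 and 90.8 in WT. These are the authors' expression values, for which the Delta47 table names no unit. The Delta47 clones lay at about the same FOXM1 level, with a KO2 minus KO1 difference of −0.05 ± 0.04 (log2, SE, adjusted p = 0.309). In OPM2 it had 91.2, 93.3 and 91.7 FPKM in KO1, 57.1, 59.55 and 69.7 in KO2, 105.9, 105.3 and 108.8 in KO1EV and 262.9, 278.0 and 291.7 in KO1R, against 175.3, 175.6 and 176.8 in WT. The transcript that remains may carry the edit, and the protein was not measured in these files.

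Interferon alpha and beta bind the receptor made of IFNAR1 and IFNAR2, and the kinases JAK1 and TYK2 then phosphorylate STAT2, which works with IRF9 in the complex ISGF3. ISGF3 binds the interferon-stimulated response element (ISRE) in promoters, while interferon gamma acts at the gamma-activated site (GAS). The genes switched on block viruses at many steps, and several of them (STAT2, IRF7, IRF9) feed back into the pathway. Interferon alpha was once given as a treatment of myeloma.

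The promoters of 6 members that the results turn on are shown because they hold, or do not hold, a match to the core of the sequence by which these genes are usually grouped. They are RefSeq sequences of build GRCh38.p14, from 180 bases before to 10 bases after the transcription start, 5′ to 3′ on the gene's strand. Capitals mark the ISRE core, GAAA followed after any 2 bases by a second GAAA, searched on both strands.
IFITM1, chr11:313860-314049, plus strand: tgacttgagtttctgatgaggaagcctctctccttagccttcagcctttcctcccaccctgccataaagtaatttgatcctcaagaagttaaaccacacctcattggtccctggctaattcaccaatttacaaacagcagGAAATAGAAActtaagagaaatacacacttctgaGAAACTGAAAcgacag
ISG15, chr1:1013317-1013506, plus strand: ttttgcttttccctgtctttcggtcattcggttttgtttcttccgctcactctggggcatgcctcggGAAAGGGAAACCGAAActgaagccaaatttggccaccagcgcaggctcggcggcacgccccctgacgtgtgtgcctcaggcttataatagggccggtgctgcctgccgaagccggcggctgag
IFI6, chr1:27672183-27672372, minus strand: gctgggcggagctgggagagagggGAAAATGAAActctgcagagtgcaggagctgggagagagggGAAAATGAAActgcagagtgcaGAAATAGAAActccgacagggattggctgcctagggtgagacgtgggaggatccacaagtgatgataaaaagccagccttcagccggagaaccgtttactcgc
OAS1, chr12:112906782-112906971, plus strand: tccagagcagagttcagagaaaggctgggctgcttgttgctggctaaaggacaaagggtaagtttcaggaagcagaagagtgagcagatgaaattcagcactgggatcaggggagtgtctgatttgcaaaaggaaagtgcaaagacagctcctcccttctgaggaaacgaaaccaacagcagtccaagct
BST2, chr19:17405621-17405810, minus strand: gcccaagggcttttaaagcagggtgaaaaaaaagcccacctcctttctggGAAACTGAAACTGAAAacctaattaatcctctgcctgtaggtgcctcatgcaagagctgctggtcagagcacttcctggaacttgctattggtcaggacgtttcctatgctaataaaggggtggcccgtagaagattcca
ISG20, chr15:88638836-88639025, plus strand: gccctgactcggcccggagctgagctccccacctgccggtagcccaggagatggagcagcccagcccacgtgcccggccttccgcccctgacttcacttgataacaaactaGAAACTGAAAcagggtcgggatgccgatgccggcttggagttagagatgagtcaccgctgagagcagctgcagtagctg
In IFITM1 the matches began 40 and 6 bases before the start. ISG15 and BST2 each held 2 overlapping matches, IFI6 held 3, and ISG20 held 1. OAS1 held no match, and its closest letters, GAAANGAAA from 17 bases before the start, have 1 base between the GAAA units. That spacing was looked for after the OAS1 sequence had been read, and it occurs in 34.7% of the members' windows and 3.12% of all windows.

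Longer RefSeq windows, all of 1 length around the start, were matched to 36 of the 45 members, several with more than 1 start site. Of their 49 windows, 28 (57.1%) held the ISRE core, against 3.57% of 35116 windows of all genes. The GAS core TTCNNNGAA was in 28.6% of the members' windows and in 7.66% of all windows, and some matches of the 2 cores overlap, as in BST2 and IFITM1. A match is a string of letters and no measured binding. The 9 members with no window were IFIT2, IFITM2, MX2, OAS2, OASL, IRF7, USP18, DHX58 and TRIM22. Of 16 members with a window that were called higher in Delta47 KO1, described further on, 8 held the ISRE core, and of the 10 other members tested there with a window 8 held it. The 8 of the first set without the ISRE core were STAT2, SP110, SP100, IRF1, IRF9, OAS1, IFI35 and UBE2L6. Among them SP110, IRF1, IRF9, OAS1 and IFI35 held the GAS core. That core was in 9 of the same 16 members and in 2 of the 10 others, a difference that was not tested. The ISRE search took only the 2-base spacing, so a window without its match, such as that of OAS1, may still hold an ISRE.

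**Figure D1:**
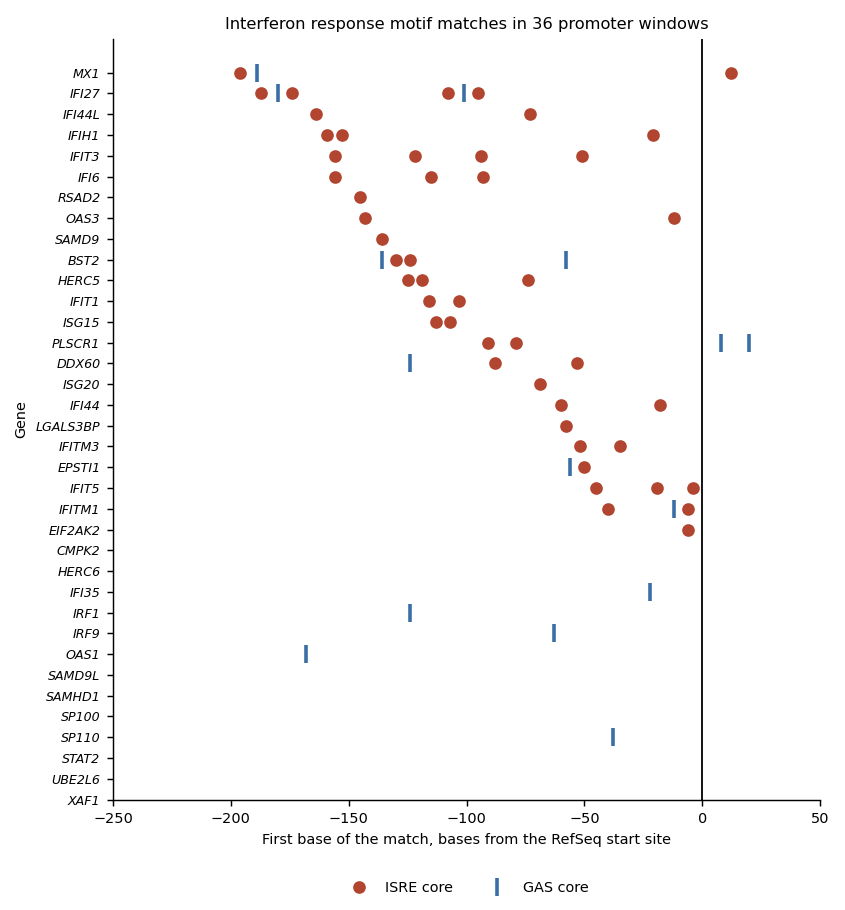
Position of each ISRE core (circles) and GAS core (bars) match in the promoter windows of 36 members, in bases from the RefSeq start site (x axis), 1 gene a row. Nearly all circles lie before the start, and the 13 genes in the lower rows have none.

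The members stood higher among all genes in Delta47 than in OPM2. In WT libraries 29 of 45 had a mean of at least 1 in Delta47 and 15 of 43 in OPM2, and the median member lay at percentile 44.1 of all Delta47 genes and 35.3 of all OPM2 genes. The tables were normalized separately, so ranks are given side by side and the lines were not tested against each other. BST2, which tethers budding virus to the cell surface, led in both lines, at percentile 97.3 in Delta47 and 96.7 in OPM2. ISG15, a ubiquitin-like modifier that is joined to other proteins during the response, lay at percentile 82.8 in Delta47 and 35.7 in OPM2. MX2, an antiviral GTPase, lay at percentile 82.9 in Delta47 and 39.1 in OPM2. IRF9 and SAMD9 ran the other way, with IRF9 at percentile 41.7 in Delta47 and 60.7 in OPM2.

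**Figure D2:**
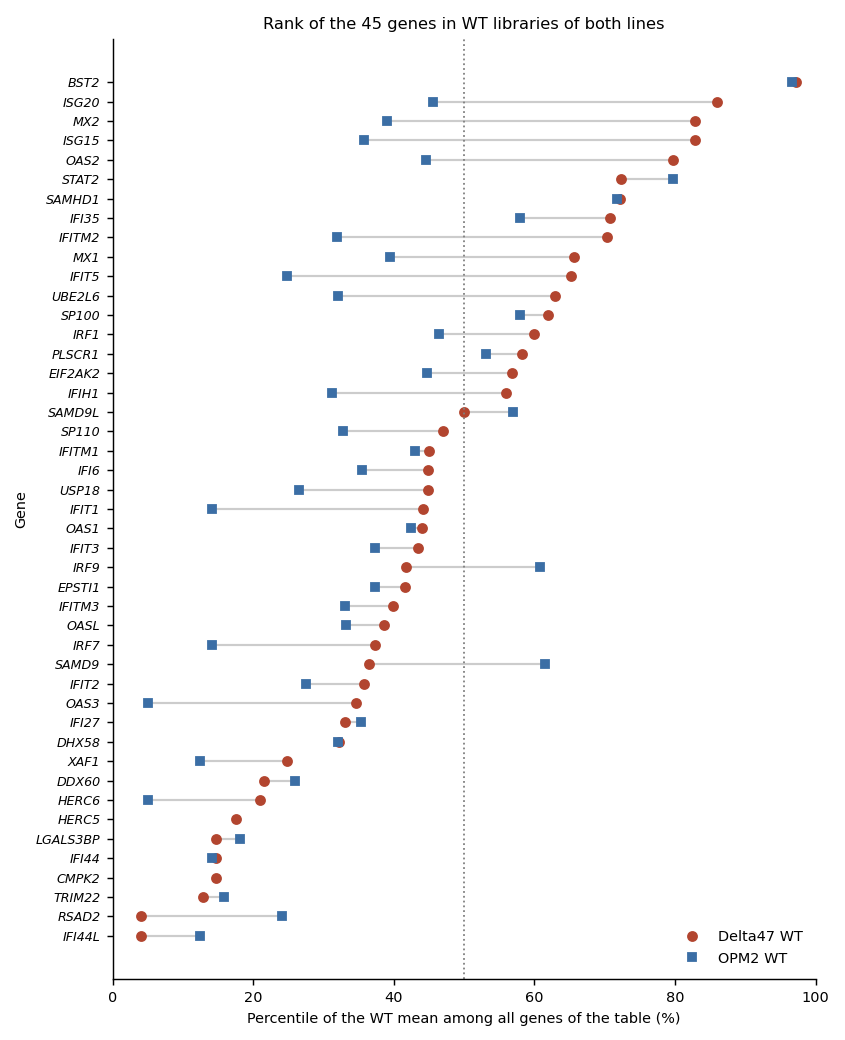
Percentile of each member's WT mean among all genes of its table (x axis, %), with circles for Delta47 and squares for OPM2, and the median gene as a dotted line. BST2 is high in both lines, while ISG20, MX2, ISG15 and OAS2 lie above the median gene in Delta47 and below it in OPM2.

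Low levels kept many members out of the tests. A test needed a value of 1 or more in 3 or more libraries of the line, a level that 32 members reached in Delta47 and 18 in OPM2. Of the members with a row that were not tested, 10 of 13 in Delta47 and 17 of 25 in OPM2 were below 0.5 in every library. RSAD2, IFI44 and IFI44L, strong responders to interferon in many cells, stayed at or below 0.17 in every library of both lines. LGALS3BP, a secreted glycoprotein, had 0.02, 0.05 and 0.10 in Delta47 KO1, 0.07, 0.10 and 0.02 in KO2 and 0.07, 0.05 and 0.07 in KO2R, against 0.02 in each WT library. Its highest value in OPM2 was 0.05 FPKM. In Delta47 IFI27 passed only through KO1 and USP18 only through WT. OAS3 passed only through KO1 and KO2 libraries there, and IRF7 only through KO1 and WT libraries. In OPM2 EPSTI1 passed only through KO1 and KO2 libraries.

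The lines showed the marker genes of plasma cells, with 8 of 9 (all but CD27) at a group mean of 1 or more in each. B cell, T or NK cell and macrophage markers summed to at most 2.02 per list in every library of both lines. In Delta47 the 5 stromal or endothelial markers summed to 3.20 to 3.53 in KO1, 14.2 to 15.9 in KO2 and 13.45 to 15.05 in KO2R, against 1.54 to 1.57 in WT, with COL1A1, COL3A1, DCN and VWF below 0.5 in every library, so the sum is nearly all PECAM1. The epithelial sum was 6.98 to 7.25 in KO1, 8.30 to 9.81 in KO2 and 11.1 to 11.7 in KO2R, against 4.07 to 5.24 in WT, with CDH1 below 0.5 in every library. The part of PECAM1 and the epithelial markers in the results was not tested. In OPM2 the epithelial and stromal sums were at most 0.50 and 1.67.

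In Delta47, KO1 cells had more than WT cells of most of the members tested, led by IFITM1, OAS1, IFI6 and SP110, while 13 members were too low for a test. Of the 32 members tested, 23 differed from WT in KO1, 19 higher and 4 lower, against 52.6% of all genes called (28.9% higher and 23.7% lower). In KO2 17 differed from WT, 8 higher and 9 lower, against 43.6% of all genes called (28.4% higher and 15.2% lower). The median log2 fold change of the members was 0.36 in KO1, beside 0.02 over all genes tested, and 0.02 in KO2, beside 0.05. Calls are at an adjusted p below 0.05 (limma, two-sided), and fold changes are differences on the log2(value + 1) scale with the SE of the fit. Both clones were set against the same WT libraries. A difference between the clones was known when the genes were chosen, and the same KO1 and KO2 libraries enter these counts. The counts include IFI27 and USP18, whose direction was set by how they passed the filter (IFI27 in KO1, USP18 in both clones). They also include OAS3, which passed only through KO1 and KO2 libraries, so higher values there were selected for. The KO1 count includes IRF7 as well, whose higher value there was partly selected for. All 3 KO1 libraries lay above every WT library for 19 members and below for 6 (31.8% and 27.8% of all genes), and all KO2 libraries above for 9 and below for 8 (34.4% and 18.7%). Calls of at least 2-fold were 5 in KO1 and 3 in KO2, beside 1.34% and 1.42% of all genes.

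Among the transcription factors of the response all 4 rose in KO1. IRF7, which drives interferon genes, had 1.99, 1.60 and 1.84 in KO1, 0.65, 0.56 and 0.43 in KO2 and 0.28, 0.17 and 0.28 in KO2R, against 0.69, 0.83 and 1.21 in WT. KO1 lay above WT in every library and KO2 below it, by 0.56 ± 0.10 (adjusted p = 0.000195) and −0.30 ± 0.10 (adjusted p = 0.0242). Of the 4 libraries at 1 or more, all but WT replicate 3 were of KO1, so a higher value in KO1 was partly selected for. The KO2 call was lost without KO2 replicate 3 or WT replicate 3, and without the WT library the difference was −0.19 (adjusted p = 0.140). IRF9, the DNA-binding part of ISGF3, had 3.04, 2.76 and 2.92 in KO1, 2.21, 1.62 and 1.86 in KO2 and 1.47, 1.38 and 1.74 in KO2R, against 1.38, 1.92 and 1.55 in WT. It rose in KO1 by 0.58 ± 0.09 (adjusted p = 6.44e-05), while KO2 overlapped WT (0.15 ± 0.09, adjusted p = 0.212). IRF1, an activator first known from interferon beta, had 9.54, 8.98 and 9.56 in KO1, 7.09, 7.87 and 6.99 in KO2 and 7.09, 6.55 and 6.40 in KO2R, against 6.85, 6.66 and 8.34 in WT. Only its KO1 libraries all exceeded WT (0.33 ± 0.07, adjusted p = 0.0013, and 0.01 ± 0.07, adjusted p = 0.929 in KO2). STAT2 had 15.45, 16.8 and 17.0 in KO1, 15.2, 15.4 and 16.1 in KO2 and 11.2, 11.7 and 12 in KO2R, against 15.1, 14.5 and 14.3 in WT. Its rise in KO1 was small (0.15 ± 0.05, adjusted p = 0.0144) and was lost without KO1 replicate 2, KO1 replicate 3 or WT replicate 3 (adjusted p up to 0.0622).

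The ubiquitin-like branch split. ISG15 had 43.1, 43.0 and 48.2 in KO1, 19.4, 20.65 and 18.8 in KO2 and 28.8, 31.3 and 31.0 in KO2R, against 25.1, 29.2 and 29.6 in WT. No KO1 or KO2 library overlapped WT, and the changes were 0.66 ± 0.06 (adjusted p = 2.44e-07) for KO1 and −0.49 ± 0.06 (adjusted p = 8.5e-06) for KO2. UBE2L6, the enzyme that carries ISG15 to its targets, also rose in KO1 (0.49 ± 0.06, adjusted p = 9.4e-06) and was not called in KO2 (0.15 ± 0.06, adjusted p = 0.0594). USP18, which removes ISG15 from proteins and also damps the interferon receptor, had 0.60, 0.62 and 0.46 in KO1, 0.35, 0.30 and 0.41 in KO2 and 0.41, 0.51 and 0.66 in KO2R, against 2.00, 2.14 and 2.53 in WT. All its edited libraries lay below WT, with differences of −1.05 ± 0.09 for KO1 and −1.25 ± 0.09 for KO2. USP18 was tested only because its WT libraries reached 1, so a lower value in the clones was selected for and its calls are a description. HERC5, a ligase of the same branch, and HERC6 were at or below 0.16 in every Delta47 library.

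The OAS enzymes make the messenger that activates RNase L, and the 3 neighbouring genes OAS1, OAS2 and OAS3 did not move alike. OAS1 had 7.20, 8.60 and 7.66 in KO1, 1.58, 1.28 and 1.62 in KO2 and 2.72, 2.73 and 2.61 in KO2R, against 1.92, 1.86 and 2.42 in WT. All KO1 libraries were above WT and all KO2 libraries below it, with 1.53 ± 0.08 (adjusted p = 4.4e-10) for KO1 and −0.30 ± 0.08 (adjusted p = 0.00888) for KO2. The fall in KO2 was lost without KO2 replicate 2 or WT replicate 3 (adjusted p up to 0.0554). OAS2, by contrast, had 39.4, 39.6 and 42.0 in KO1, 36.9, 35.4 and 35.9 in KO2 and 29.4, 31.0 and 31.6 in KO2R, against 23.8, 22.6 and 21.9 in WT. It rose in both clones, by 0.80 ± 0.04 (adjusted p = 4.23e-10) for KO1 and 0.64 ± 0.04 (adjusted p = 4.91e-09) for KO2. OAS3, at 0.45 to 1.09 in KO1, KO2 and WT libraries, rose by 0.35 ± 0.08 in each clone. It was tested only because clone libraries reached 1, so its calls against WT are a description. Of the cytoplasmic RNA sensors, IFIH1 fell slightly in KO1 (−0.21 ± 0.06, adjusted p = 0.0116, lost without WT replicate 1 at an adjusted p of 0.0600), and EIF2AK2, the kinase PKR, was not called in either clone (−0.12 ± 0.08 in KO1 and 0.05 ± 0.08 in KO2). DHX58 was not tested, with 1.03, 0.88 and 1.18 in KO1, 0.33, 0.45 and 0.56 in KO2 and 0.59, 0.74 and 0.85 in KO2R, against 0.31, 0.45 and 0.40 in WT.

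The IFITM proteins sit in membranes and hinder virus entry, and the 3 neighbouring IFITM genes held the largest change. IFITM1 had 11.3, 11.7 and 9.54 in KO1, 0.42, 0.67 and 0.59 in KO2 and 2.00, 3.42 and 2.07 in KO2R, against 1.66, 2.82 and 2.33 in WT. KO1 was several times above WT and KO2 well below it, with 1.87 ± 0.14 (adjusted p = 1.99e-08) for KO1 and −1.06 ± 0.14 (adjusted p = 1.59e-05) for KO2. IFITM2 had 10.6, 14.2 and 11.5 in KO1, 3.55, 3.59 and 3.34 in KO2 and 9.21, 7.57 and 7.40 in KO2R, against 11.6, 13.7 and 14.1 in WT. Its KO1 libraries overlapped WT (−0.12 ± 0.10, adjusted p = 0.315), and its KO2 libraries were all far lower (−1.65 ± 0.10, adjusted p = 7.18e-10). IFITM3 had 1.67, 2.13 and 1.80 in KO1, 0.64, 0.38 and 0.20 in KO2 and 1.00, 0.72 and 0.96 in KO2R, against 1.67, 1.51 and 0.61 in WT. The WT libraries spread widely for IFITM3, and it was called only in KO2 (−0.66 ± 0.16, adjusted p = 0.00249, and 0.37 ± 0.16, adjusted p = 0.0544 in KO1). The IFITM genes are close copies, and how reads shared between them were counted is not given in the sources used here, so the split of values between them is uncertain.

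Among the other membrane proteins IFI6, a mitochondrial and endoplasmic reticulum protein, had 6.07, 8.55 and 6.56 in KO1, 4.88, 3.67 and 3.81 in KO2 and 6.44, 5.71 and 5.20 in KO2R, against 1.76, 2.11 and 2.83 in WT. All edited groups lay above WT, and KO1 above KO2, with 1.32 ± 0.13 (adjusted p = 3.11e-07) for KO1 and 0.67 ± 0.13 (adjusted p = 0.000448) for KO2. IFI27, of the same family, had 1.54, 1.22 and 1.80 in KO1, 0.32, 0.36 and 0.48 in KO2 and 0.72, 0.48 and 0.51 in KO2R, against 0.36, 0.24 and 0.72 in WT. Its KO1 libraries all lay above WT (0.81 ± 0.12), and KO2 overlapped WT (−0.04 ± 0.12, adjusted p = 0.80). IFI27 was tested only because its KO1 libraries reached 1, so a higher value in KO1 was selected for and its calls against WT and KO2 are a description. BST2 had 237.5, 221.4 and 228.2 in KO1, 232.8, 221.0 and 227.25 in KO2 and 246.3, 231.7 and 244.6 in KO2R, against 156.3, 166.0 and 171.1 in WT. All edited libraries lay above WT, by 0.48 ± 0.04 (adjusted p = 6.39e-08) for KO1 and 0.46 ± 0.04 (adjusted p = 8.83e-08) for KO2.

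**Figure D3:**
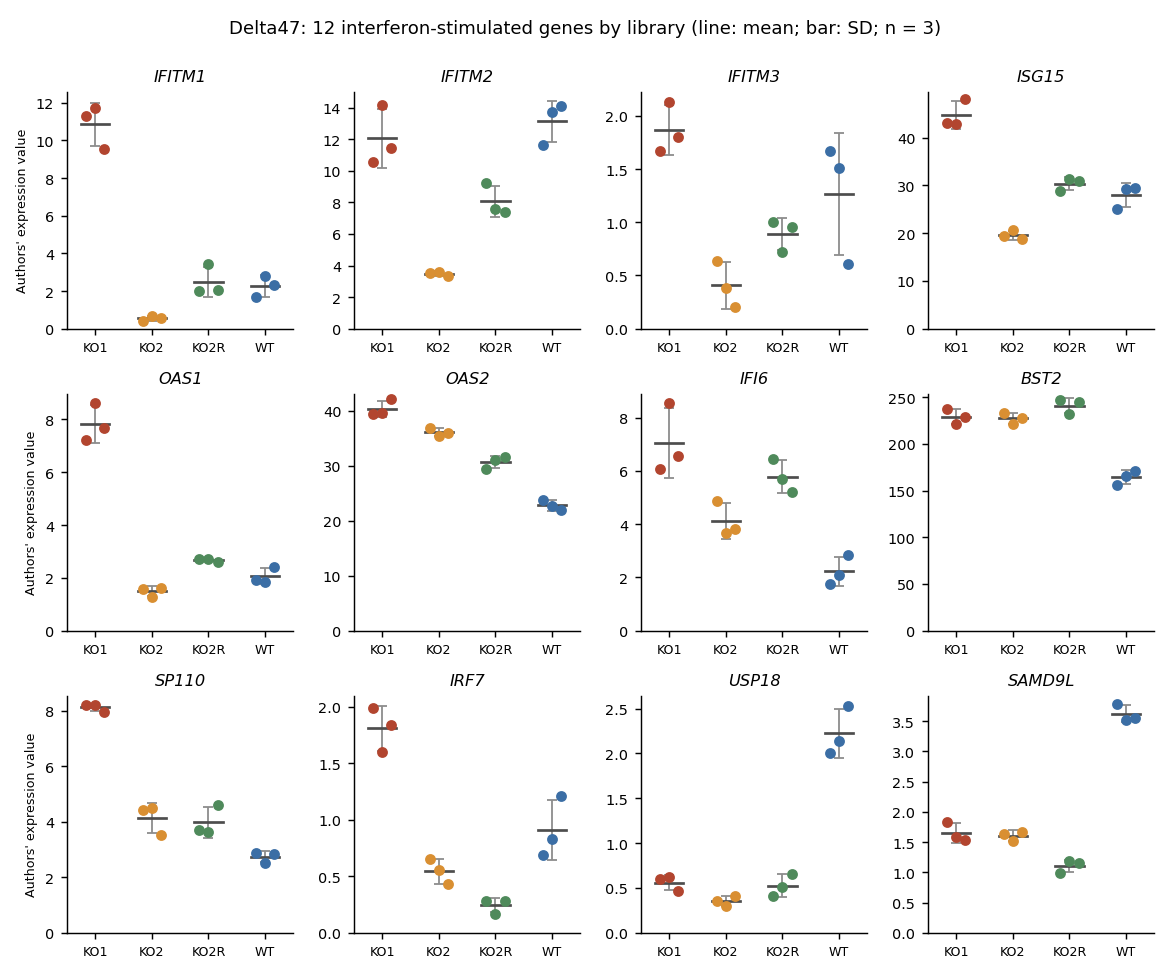
Authors' expression value (y axis, from 0) of 12 members in each Delta47 library by group (KO1, KO2, KO2R, WT), with points for libraries, a line for the mean and a bar for the SD (n = 3). IFITM1, ISG15 and OAS1 are highest in KO1 and lowest in KO2, OAS2 and BST2 are above WT in all edited groups, and USP18 and SAMD9L are below WT in all of them.

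Of the GTPases and nucleases, MX2 rose in both clones (0.54 ± 0.04 for KO1, adjusted p = 8.47e-09, and 0.67 ± 0.04 for KO2, adjusted p = 5.19e-10). Its neighbour MX1, which blocks influenza virus, had 9.53, 8.91 and 8.83 in KO1, 8.86, 8.19 and 8.84 in KO2 and 5.53, 5.65 and 6.47 in KO2R, against 10.2, 9.89 and 10.4 in WT. Every edited library lay below WT for MX1, but only KO2 was called (−0.21 ± 0.06, adjusted p = 0.00858, and −0.15 ± 0.06, adjusted p = 0.0505 in KO1). ISG20, an RNA exonuclease, rose in KO1 (0.49 ± 0.06, adjusted p = 4.45e-06) and was not called in KO2 (0.11 ± 0.06, adjusted p = 0.151). SAMHD1, which breaks down nucleotides needed by retroviruses, had 12.8, 12.9 and 13.8 in KO1, 14.3, 15.5 and 13.7 in KO2 and 10.5, 11.05 and 12.85 in KO2R, against 14.7, 15.3 and 13.7 in WT. It was not called in either clone (−0.14 ± 0.07, adjusted p = 0.101, and −0.00 ± 0.07, adjusted p = 0.969).

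Of the nuclear body and remaining members, SP110 had 8.19, 8.20 and 7.97 in KO1, 4.43, 4.49 and 3.52 in KO2 and 3.70, 3.62 and 4.60 in KO2R, against 2.87, 2.50 and 2.85 in WT. KO1 lay well above KO2 and KO2 above WT, with 1.29 ± 0.09 (adjusted p = 4.31e-09) and 0.46 ± 0.09 (adjusted p = 0.00042). Its relative SP100 and the leucine zipper protein IFI35 rose in KO1 (0.44 ± 0.06 and 0.39 ± 0.06) and were not called in KO2. SAMD9L, a growth-restraining gene, fell in both, by −0.81 ± 0.07 (adjusted p = 1.16e-07) for KO1 and −0.83 ± 0.07 (adjusted p = 8.83e-08) for KO2, with 1.51 to 1.83 in the 6 knockout libraries against 3.52 to 3.78 in WT. The IFIT genes, whose products bind foreign RNA, differed among themselves. IFIT1 was lower in KO1 (−0.25 ± 0.09, adjusted p = 0.0265), a call lost without KO1 replicate 2, KO1 replicate 3, WT replicate 1 or WT replicate 3 (adjusted p up to 0.131), IFIT5 was higher in KO2 (0.34 ± 0.07, adjusted p = 0.0012), and IFIT3 was called in neither.

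The Delta47 clones differed from each other in 21 of the 32 members, 4 higher and 17 lower in KO2, against 42.1% of all genes called (24.9% higher and 17.2% lower). All KO2 libraries lay above every KO1 library for 6 members and below for 19, beside 32.8% and 22% of all genes. The median KO2 minus KO1 difference was −0.22 over the members and 0.03 over all genes. This difference was known when the genes were chosen, so it is a description. It was largest for IFITM1 (−2.92 ± 0.14), OAS1 (−1.82 ± 0.08), IFITM2 (−1.53 ± 0.10), ISG15 (−1.15 ± 0.06) and IFITM3 (−1.04 ± 0.16). Members without an ISRE core in the window were among the 17, with SP110 at −0.83 ± 0.09 and IRF9 at −0.44 ± 0.09, as were IFI27 (−0.86 ± 0.12) and IFI6 (−0.65 ± 0.13). The 4 that were higher in KO2 were IFIT1, IFIT5, EPSTI1 and MX2, at 0.13 to 0.33. The EPSTI1 call was lost without KO2 replicate 2, and that of PLSCR1, a lower member, without KO1 replicate 2 or KO2 replicate 1 (adjusted p up to 0.0532 and 0.0705). By pattern, 6 members rose in both clones (OAS2, SP110, IFI6, BST2, OAS3 and MX2), a pattern shown by 17.1% of all genes tested. The place of OAS3 there is a description, since it passed the filter only through the clones. SAMD9L and USP18 were lower in both (10.2% of all genes). ISG15, OAS1, IRF7 and IFITM1 were higher in KO1 and lower in KO2, a pattern shown by 0.982% of all genes, and no member had the opposite pattern (1.32% of all genes). As given above, the KO2 calls of OAS1 and IRF7 against WT were lost without single libraries.

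**Figure D4:**
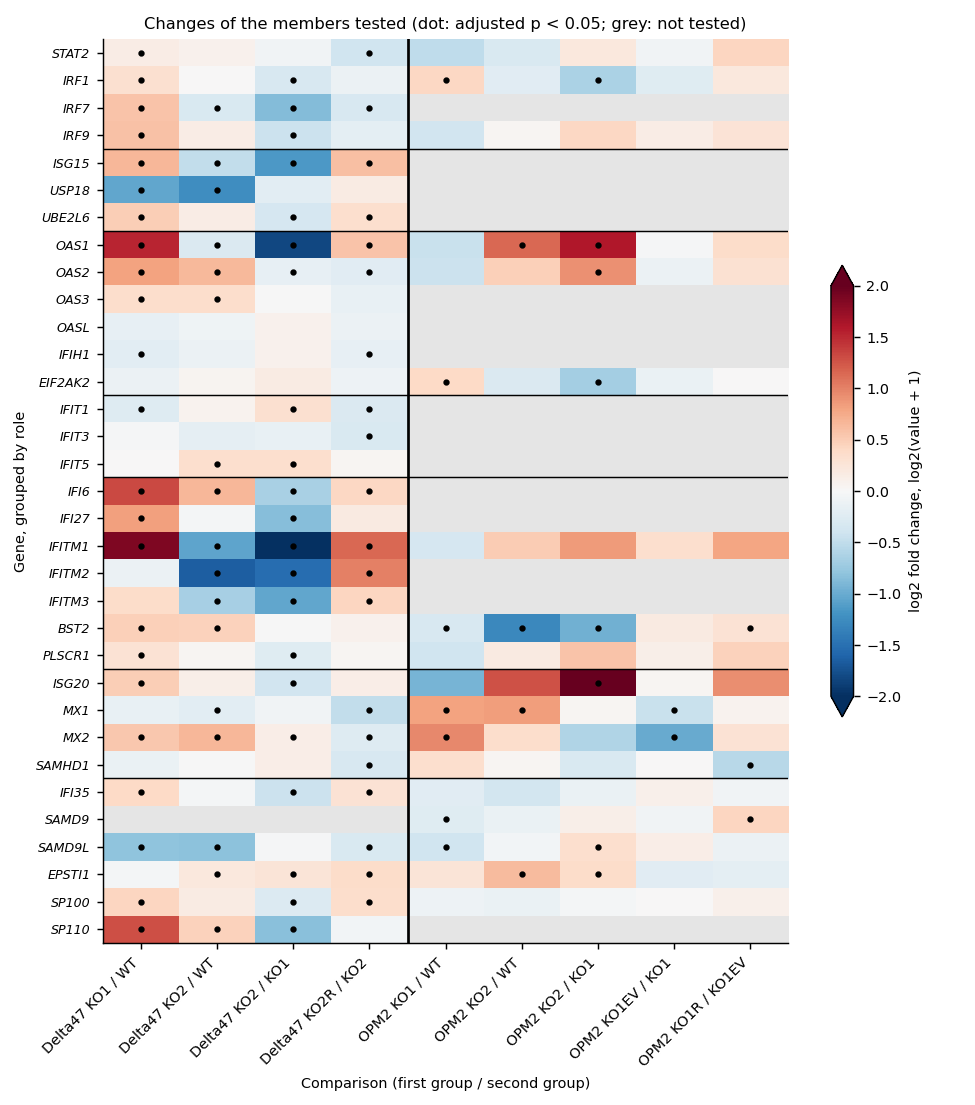
Log2 fold change (colour, red higher and blue lower in the first group named) of the members tested, 1 gene a row by role, in 4 Delta47 and 5 OPM2 comparisons (columns), with dots at an adjusted p below 0.05 and grey for members not tested in that line. The Delta47 KO1 column is mostly red and the KO2 against KO1 column mostly blue, with IFITM1 and OAS1 the deepest.

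With the FOXM1c vector, Delta47 KO2R cells had more IFITM1, IFITM2, ISG15 and OAS1 than untransduced KO2 cells, and less MX1, STAT2 and SAMHD1. The vector group differed in 20 of the 32 members, 10 higher and 10 lower, against 62% of all genes called (25.2% higher and 36.8% lower), with a median of −0.01 over the members and −0.05 over all genes. IFITM1 rose by 1.14 ± 0.14 (adjusted p = 3.43e-06), and its KO2R libraries overlapped those of WT, with 1 above them. IFITM2 rose by 1.01 ± 0.10 (adjusted p = 1.95e-07) but stayed below every WT library. ISG15 and OAS1 rose by 0.61 ± 0.06 (adjusted p = 4.28e-07) and 0.57 ± 0.08 (adjusted p = 2.13e-05), with OAS1 above and ISG15 partly above the WT libraries. IFITM3 rose by 0.44 ± 0.16 (adjusted p = 0.0222), a call lost without KO2R replicate 1, KO2R replicate 3, KO2 replicate 2 or KO2 replicate 3 (adjusted p up to 0.105). MX1 fell by 0.49 on the log2 scale (SE 0.06, adjusted p = 3.18e-06), to below every KO2 and WT library, and so did STAT2 (−0.39 ± 0.05, adjusted p = 3.69e-06) and SAMHD1 (−0.32 ± 0.07, adjusted p = 0.000652).

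Members that had changed in KO2 went both ways with the vector. IFITM1, IFITM2, IFITM3, ISG15, OAS1, OAS2 and MX2 changed against their KO2 direction, 7 members of 32 beside 16.4% of all genes tested. IFI6, SAMD9L, MX1, IRF7 and EPSTI1 changed further in the same direction, 5 members beside 11.6% of all genes. The EPSTI1 call in KO2 against WT, on which its place rests, was lost with quantile scaling, in a fit of those groups alone, with the length trend removed, and without KO2 replicate 2, KO2 replicate 3, WT replicate 1 or WT replicate 3 (adjusted p up to 0.145). The KO2 libraries enter both differences. OAS2 and MX2 fell by only a part of their KO2 rise (−0.23 ± 0.04, adjusted p = 0.000258, and −0.26 ± 0.04, adjusted p = 2.25e-05). IRF7 fell below KO2 in every library (−0.31 ± 0.10, adjusted p = 0.0123), a call lost without KO2R replicate 2 or KO2 replicate 1 (adjusted p up to 0.0554), and IFI6 rose (0.41 ± 0.13, adjusted p = 0.0101), lost without KO2R replicate 1 (adjusted p = 0.0506). BST2 and SP110 were not called, with differences of 0.08 ± 0.04 (adjusted p = 0.0753) and −0.05 ± 0.09 (adjusted p = 0.636).

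Libraries that stand apart come first in OPM2. KO2 replicate 3 and KO1EV replicate 3 deviated from the average of their 2 fellow replicates with an SD of 0.533 and 0.271 (log2) over all genes tested, and the other libraries outside KO2 with 0.10 to 0.158, while KO2 replicates 1 and 2, whose mean it enters, had 0.282 and 0.277. For the 18 members tested, KO2 replicate 3 lay below both other KO2 libraries for 13 and above both for 5. KO1EV replicate 3 lay below both others of its group for 11 and above both for 5, and 10 members were below in both. Counts and named genes in OPM2 are therefore given with all libraries and without these 2. Neither is a KO1 or WT library, so differences between KO1 and WT are the same in both fits and only their errors change.

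In OPM2 the clearest changes were a fall of BST2 and a rise of MX1 in both clones. Over all genes tested, 1.68% were called lower and 1.87% higher in both clones. BST2 had 106.2, 101.1 and 110.85 FPKM in KO1, 49.9, 51.6 and 60.8 in KO2, 120.6, 129.5 and 111.9 in KO1EV and 155.5, 147.0 and 140.2 in KO1R, against 129.8, 131.1 and 137.6 in WT. All knockout libraries lay below WT, KO2 most, with −0.32 ± 0.08 (adjusted p = 0.0137) for KO1 and −1.29 ± 0.08 (adjusted p = 2.43e-07) for KO2. Without the 2 libraries the changes were −0.32 ± 0.05 and −1.37 ± 0.05. The KO1 call was lost without KO1 replicate 2 or WT replicate 3 (adjusted p up to 0.0624). MX1 had 2.19, 2.60 and 2.57 FPKM in KO1, 2.89, 2.62 and 2.14 in KO2, 1.97, 1.57 and 1.12 in KO1EV and 1.62, 1.83 and 1.51 in KO1R, against 0.95, 0.85 and 1.14 in WT. Every knockout library lay above WT, with 0.80 ± 0.12 (adjusted p = 0.000439) for KO1 and 0.84 ± 0.12 (adjusted p = 0.000322) for KO2, and 0.80 ± 0.08 and 0.93 ± 0.09 without the 2 libraries. Both directions are the opposite of those in Delta47, where BST2 rose in both clones and MX1 fell in KO2.

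Over all libraries 7 of 18 members differed from WT in OPM2 KO1, 4 higher and 3 lower, against 21.2% of all genes called (14.5% higher and 6.72% lower), and 4 in KO2, 3 higher and 1 lower, against 14.4% (6.54% higher and 7.82% lower). The higher calls in KO2 include EPSTI1, which passed the filter only through KO1 and KO2 libraries, so a higher value there was selected for. All KO1 libraries lay above every WT library for 6 members and below for 11, beside 39.1% and 21.6% of all genes. All KO2 libraries lay above WT for 3 members and below for 3, beside 14.2% and 14.4%. Both counts above WT include EPSTI1. With quantile scaling the KO1 split of calls was 3 higher and 4 lower. The KO1 count was 4 without KO1 replicate 2, KO1 replicate 3, WT replicate 1 or WT replicate 3, and the KO2 count was 12 without KO2 replicate 3. Shares of all genes called are not given for these fits, so their counts show no gain particular to the members. Without KO2 replicate 3 and KO1EV replicate 3 the counts were 17 in KO1 (6 higher and 11 lower, all genes 58.9%) and 14 in KO2 (10 higher and 4 lower, all genes 41.2%). The KO1 and WT libraries are the same in both fits, which share 1 estimate of the spread over all groups. The median over the members was −0.28 in KO1, beside 0.07 over all genes, and 0.04 in KO2, beside 0.02 (0.22 in KO2 without the 2 libraries, beside −0.02). Besides MX1, KO1 was higher in MX2, IRF1 and EIF2AK2 and lower in SAMD9 and SAMD9L. IRF1 had 4.03, 3.55 and 4.02 FPKM in KO1, 2.22, 1.79 and 2.43 in KO2, 3.0, 3.23 and 3.14 in KO1EV and 3.54, 3.85 and 3.89 in KO1R, against 2.37, 2.90 and 2.70 in WT. It rose in KO1 (0.41 ± 0.08, adjusted p = 0.00434) and was not called in KO2 (−0.22 ± 0.08, adjusted p = 0.104), while without the 2 libraries it was called lower there (−0.28 ± 0.08, adjusted p = 0.014). EIF2AK2 was then also called lower in KO2 (−0.36 ± 0.08, adjusted p = 0.00233). MX2 had 2.01, 2.96 and 3.38 FPKM in KO1, 1.78, 2.04 and 0.74 in KO2, 1.2, 1.25 and 0.31 in KO1EV and 1.41, 1.24 and 1.16 in KO1R, against 0.77, 1.01 and 1.01 in WT. It was above WT in each KO1 library (0.96 ± 0.23, adjusted p = 0.0101) and in KO2 only in replicates 1 and 2 (0.35 ± 0.23, adjusted p = 0.350, and 0.59 ± 0.12 without the 2 libraries, adjusted p = 0.0013). The SAMD9, SAMD9L and EIF2AK2 calls were each lost without 1 of several libraries: SAMD9 without any of the 6 of KO1 and WT, SAMD9L without KO1 replicate 2, KO1 replicate 3 or WT replicate 1, and EIF2AK2 without any of the 6 but KO1 replicate 2 (adjusted p up to 0.154, 0.0692 and 0.0924). Without KO2 replicate 3 and KO1EV replicate 3 all 3 were called (adjusted p = 0.00262 for SAMD9, 6.32e-05 for SAMD9L and 0.000324 for EIF2AK2).

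**Figure D5:**
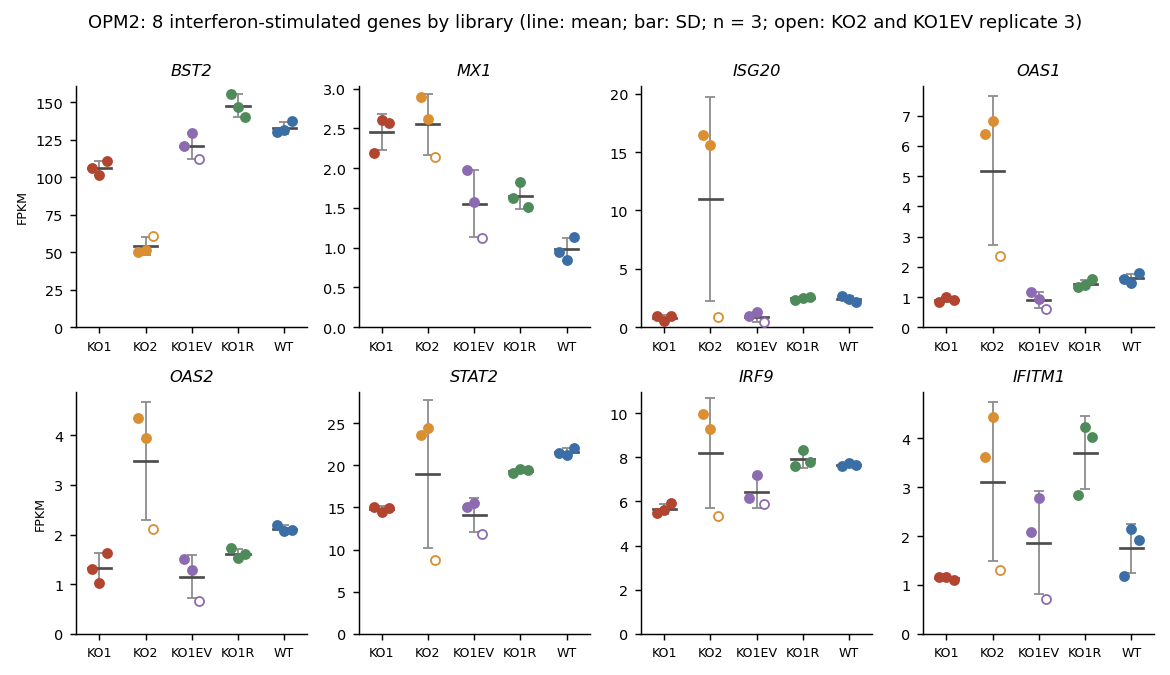
FPKM (y axis, from 0) of 8 members in each OPM2 library by group (KO1, KO2, KO1EV, KO1R, WT), with points for libraries, a line for the mean and a bar for the SD (n = 3), and open points for replicate 3 of KO2 and KO1EV. The open KO2 point lies far below the 2 filled ones for ISG20, OAS1, OAS2, STAT2, IRF9 and IFITM1, and above them for BST2.

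Between the OPM2 clones ISG20, OAS1, OAS2, EPSTI1 and SAMD9L were higher and BST2, EIF2AK2 and IRF1 lower in KO2. The SAMD9L call was lost without KO1 replicate 2, KO1 replicate 3, KO2 replicate 1 or KO2 replicate 2 (adjusted p up to 0.0992). The EPSTI1 call was lost without KO1 replicate 2 (adjusted p = 0.0832). In a fit of KO2 and KO1 alone both were lost (adjusted p = 0.0787 and 0.102), and without the 2 libraries both were called. EPSTI1 passed the filter only through KO1 and KO2 libraries. ISG20 had 16.45, 15.6 and 0.91 FPKM in KO2, 0.93, 0.54 and 0.95 in KO1, 0.94, 1.30 and 0.41 in KO1EV and 2.37, 2.54 and 2.59 in KO1R, against 2.66, 2.38 and 2.20 in WT. KO2 replicate 3 was at the level of KO1 and below WT, while the other KO2 libraries were several times above WT. The KO2 minus KO1 difference was 2.19 ± 0.60 (adjusted p = 0.014) with all libraries and 3.24 ± 0.10 without the 2, and the call was lost without KO1 replicate 2, KO2 replicate 1 or KO2 replicate 2 (adjusted p up to 0.0685) and in a fit of KO2 and KO1 alone (adjusted p = 0.143). OAS1 had 6.38, 6.81 and 2.35 FPKM in KO2, 0.83, 1.01 and 0.89 in KO1, 1.15, 0.95 and 0.60 in KO1EV and 1.32, 1.39 and 1.59 in KO1R, against 1.58, 1.48 and 1.78 in WT. All KO2 libraries lay above WT for OAS1, including replicate 3, with 1.15 ± 0.24 (adjusted p = 0.00534) and, without the 2 libraries, 1.54 ± 0.08. In a fit of KO2 and WT alone the OAS1 call was lost (adjusted p = 0.127). Over all libraries KO2 differed from KO1 in 8 members, 5 higher and 3 lower, against 29.9% of all genes called (10.8% higher and 19.1% lower), 8 higher and 3 lower with quantile scaling, and in 15 without the 2 libraries, 10 higher and 5 lower, against 67.7%. All KO2 libraries lay above every KO1 library for 5 members and below for 3, beside 12.7% and 22% of all genes. Leaving out KO2 replicate 3 alone gave 14, and leaving out KO1 replicate 2 gave 5, with no share of all genes given for either fit.

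IFITM1, STAT2 and IRF9 were not called between the OPM2 clones or against WT with all libraries. IFITM1 had 1.17, 1.17 and 1.11 FPKM in KO1, 3.61, 4.44 and 1.30 in KO2, 2.09, 2.78 and 0.71 in KO1EV and 2.85, 4.23 and 4.04 in KO1R, against 1.19, 2.15 and 1.92 in WT. STAT2 had 15.0, 14.45 and 15.0 FPKM in KO1, 23.6, 24.4 and 8.79 in KO2, 15.0, 15.6 and 11.8 in KO1EV and 19.1, 19.5 and 19.4 in KO1R, against 21.4, 21.2 and 22.1 in WT. IRF9 had 5.48, 5.62 and 5.91 FPKM in KO1, 9.95, 9.28 and 5.33 in KO2, 6.17, 7.21 and 5.87 in KO1EV and 7.62, 8.35 and 7.78 in KO1R, against 7.61, 7.76 and 7.65 in WT. For STAT2 and IRF9 all KO1 libraries lay below WT, and KO2 replicates 1 and 2 lay above it. Without the 2 libraries STAT2 was at −0.51 ± 0.04 (adjusted p = 5.82e-08) for KO1 and 0.15 ± 0.04 (adjusted p = 0.0166) for KO2 against WT. IRF9 was then at −0.38 ± 0.06 (adjusted p = 6.73e-05) and 0.29 ± 0.07 (adjusted p = 0.00247), and IFITM1 at −0.34 ± 0.13 (adjusted p = 0.0412) and 0.88 ± 0.15 (adjusted p = 0.000244).

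Several members named for Delta47 were too low for a test in OPM2. ISG15 had 0.78, 0.39 and 0.65 FPKM in KO1, 1.30, 0.76 and 0.75 in KO2, 0.66, 0.56 and 0.39 in KO1EV and 0.47, 0.55 and 0.48 in KO1R, against 0.64, 0.28 and 0.57 in WT. IFI6 reached at most 0.96, IFI27 0.67, IFITM2 0.68, IFITM3 0.54 and IRF7 0.06 FPKM in any library. SAMHD1 had 18.9, 16.4 and 17.8 FPKM in KO1, 11.3, 12.7 and 19.7 in KO2, 15.8, 16.5 and 21.3 in KO1EV and 11.9, 11.85 and 11.6 in KO1R, against 14.8, 13.6 and 13.2 in WT. It was not called in either clone (0.33 ± 0.16, adjusted p = 0.139, and 0.03 ± 0.16, adjusted p = 0.912) with all libraries. Without the 2 libraries SAMHD1 was called higher in KO1 (0.33 ± 0.06, adjusted p = 0.000219) and lower in KO2 (−0.19 ± 0.07, adjusted p = 0.0318), so its KO2 difference changed sign.

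The empty vector in OPM2 went with lower MX1 and MX2 than in KO1 cells, and FOXM1c over the empty vector with higher SAMD9 and BST2 and lower SAMHD1. KO1EV differed from KO1 in 2 members, both lower, against 4.95% of all genes called (3.17% lower), MX2 by −1.0 ± 0.23 (adjusted p = 0.0197) and MX1 by −0.45 ± 0.12 (adjusted p = 0.0473). The MX1 call was lost without any of the 3 KO1 libraries, KO1EV replicate 2 or KO1EV replicate 3, and the MX2 call without KO1 replicate 2, KO1 replicate 3 or KO1EV replicate 3 (adjusted p up to 0.178 and 0.0955). Without KO2 replicate 3 and KO1EV replicate 3 together MX2 was at −0.75 ± 0.12 (adjusted p = 0.000482) and MX1 at −0.32 ± 0.09 (adjusted p = 0.0171). KO1R differed from KO1EV in 3 members, SAMD9 (0.43 ± 0.08, adjusted p = 0.00511) and BST2 (0.29 ± 0.08, adjusted p = 0.0434) higher and SAMHD1 (−0.55 ± 0.16, adjusted p = 0.0464) lower, against 8.23% of all genes called (3.1% higher and 5.12% lower). With quantile scaling it was 2 higher and 0 lower. All KO1R libraries lay above every KO1EV library for 10 members and below for 1, beside 14.7% and 28.2% of all genes, and the median was 0.28 over the members and −0.06 over all genes (0.17 and −0.04 without the 2 libraries). The BST2 call was lost without each library of the 2 groups but KO1EV replicate 2, and the SAMHD1 call without each of the 6 (adjusted p up to 0.174 and 0.181). The KO1EV count was 0 without KO1 replicate 2, KO1 replicate 3 or KO1EV replicate 3 and 1 without KO1 replicate 1 or KO1EV replicate 2, and the KO1R count was 1 without any of its 6 libraries but KO1EV replicate 2. No share of all genes is given for these fits. Without KO2 replicate 3 and KO1EV replicate 3 the counts were 8 for KO1EV against KO1 (3 higher and 5 lower, all genes 32%) and 9 for KO1R against KO1EV (8 higher and 1 lower, all genes 26.4%). SAMD9 was then at 0.45 ± 0.07 (adjusted p = 0.000177), BST2 at 0.24 ± 0.05 (adjusted p = 0.0037) and SAMHD1 at −0.42 ± 0.07 (adjusted p = 0.00027) in KO1R. With all libraries BST2 and SAMD9, lower in KO1 than in WT, were the 2 members called in the opposite direction with FOXM1c, beside 2.64% of all genes.

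Around these genes, the interferons themselves were not seen: of 9 ligand genes 3 had a row in each table and none reached the level for a test. The receptor and kinase genes were all tested in both lines. Of 9, in Delta47 KO1 3 were higher and 2 lower than WT and in KO2 2 and 4, beside 52.6% and 43.6% of all genes called. IFNGR1, a chain of the interferon gamma receptor, was higher in OPM2 KO2 than in KO1 (0.65 ± 0.14, adjusted p = 0.00372, and 0.84 ± 0.07 without the 2 libraries) and rose with FOXM1c in Delta47 (0.55 ± 0.07, adjusted p = 5.68e-06). Among sensors and adaptors in Delta47, 4 were higher and 5 lower in KO1 and 4 and 4 in KO2 of 11 tested, against the same 52.6% and 43.6%. ADAR, which edits double-stranded RNA and so keeps it from the sensors, fell in both Delta47 clones, with 55.1, 57.4 and 57.3 in KO1, 62.3, 59.4 and 58.6 in KO2 and 37.3, 41.2 and 42.1 in KO2R, against 110.8, 104.0 and 100.7 in WT. Its changes were −0.88 ± 0.05 (adjusted p = 3.34e-10) for KO1 and −0.80 ± 0.05 (adjusted p = 8.41e-10) for KO2. MAVS, the adaptor of the RNA sensors, was lower in KO2R than KO2 (−0.69 ± 0.05, adjusted p = 2.25e-08). In OPM2 ZBP1, a sensor of unusual nucleic acid forms, had 2.68, 2.51 and 3.04 FPKM in KO1, 16.8, 18.2 and 3.45 in KO2, 3.98, 3.80 and 2.23 in KO1EV and 5.81, 5.46 and 6.09 in KO1R, against 11.3, 13.8 and 12.9 in WT. It fell in KO1 (−1.87 ± 0.40, adjusted p = 0.0058, and ± 0.07 without the 2 libraries), and KO2 replicate 3 again lay apart.

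Of 5 interferon gamma targets tested in Delta47, 4 were higher and none lower than WT in KO1, 1 higher and 3 lower in KO2, none higher and 4 lower in KO2 than in KO1, and 3 higher and 1 lower in KO2R than in KO2. Over all genes 28.9% were higher and 23.7% lower in KO1, 28.4% and 15.2% in KO2, 24.9% and 17.2% in KO2 than in KO1, and 25.2% and 36.8% in KO2R than in KO2. PSMB8, a subunit of the immunoproteasome that makes peptides for antigen presentation, had 64.7, 62.9 and 60.8 in KO1, 41.2, 38.6 and 40.7 in KO2 and 68.0, 68.0 and 68.8 in KO2R, against 56.5, 53.3 and 52.9 in WT. It rose in KO1 (0.21 ± 0.04, adjusted p = 0.000295), fell in KO2 (−0.42 ± 0.04, adjusted p = 1.76e-07) and was higher in KO2R than in KO2 (0.75 ± 0.04, adjusted p = 4.31e-10). PSMB9, its partner subunit, had 0.21 ± 0.05, −0.32 ± 0.05 and 0.51 ± 0.05 in the same comparisons. GBP5, a guanylate-binding protein, fell in KO2 (−0.73 ± 0.06, adjusted p = 1.05e-07). In OPM2 4 of 5 were lower in KO2 than in KO1 and none higher, beside 19.1% of all genes lower, with PSMB9 at −0.97 ± 0.22 (adjusted p = 0.00434, and −0.75 ± 0.12 without the 2 libraries). PSMB8 was not called in OPM2 KO1R against KO1EV (−0.17 ± 0.11, adjusted p = 0.373). Without the 2 libraries it was called lower there (−0.32 ± 0.07, adjusted p = 0.0029). Of the 3 feedback genes tested, PTPN6, a phosphatase that acts on JAK kinases, was lower in both OPM2 clones (−0.56 ± 0.07 in KO1 and −0.46 ± 0.07 in KO2). With FOXM1c PTPN6 rose in Delta47 KO2R over KO2 (0.60 ± 0.07, adjusted p = 3.26e-06) and fell in OPM2 KO1R against KO1EV (−0.49 ± 0.07, adjusted p = 0.000621), while it was higher in OPM2 KO1EV than in KO1 (0.46 ± 0.07, adjusted p = 0.00139). Without the 2 libraries all 4 OPM2 differences of PTPN6 were called in the same direction.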

How the data were processed

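Poly-A RNA was read as paired ends on a DNBseq instrument, per the labels' protocols, and the genome build was hg19, per the submitters' processing notes. No source used here names the aligner or the counter. The OPM2 values are FPKM, per the file headers. For Delta47 no unit is named. What the authors deposited there was handled as a signal and is called the authors' expression value. Column totals were 510776 to 566016 in OPM2 and 534185 to 633778 in Delta47. These are no read counts, so the depth is unknown and no counting interval is given. The Delta47 vector columns give an R but no clone number. They were read as KO2R, the Delta47 samples with an R in their name. A further 3 Delta47 columns matched no single sample by name and were not used.

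Values were taken as log2(value + 1), unscaled. A value of 1 or more in 3 or more libraries of the line was needed for a test, which 10309 OPM2 genes and 11001 Delta47 genes met. Each line had 1 limma-trend fit over all its groups (limma 3.58.1, R 4.3.3), two-sided, with Benjamini-Hochberg adjustment over all genes tested and calls below 0.05. On this scale the change of low genes is understated. The fit was tested on simulated data. The members, lists and rules were chosen with earlier results of these data known. Values in every library are printed for members called with an absolute log2 fold change of at least 1 and a group mean of at least 2, and for 16 fixed genes. Of the pathway genes the 8 called with the largest change are named.

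Alternatives were a pseudocount of 0.1, no filter on low values, quantile scaling, a fit of only the 2 groups compared, the replicate number as a block, removal of a trend on transcript length, leaving out each library, and leaving out OPM2 KO2 and KO1EV replicate 3 together.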

Additional observations from a re-analysis of the deposited data

Results flagged for a closer look

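In Delta47, 4 members were called in opposite directions against WT in the 2 knockout clones. The KO2 minus KO1 differences were −2.92 for IFITM1, −1.82 for OAS1, −1.15 for ISG15 and −0.86 for IRF7 (log2). The clones share their WT libraries. Their difference was known when the genes were chosen, so it and the opposite calls are a description. IRF7 passed the filter only through KO1 and WT libraries. Its KO2 call against WT was lost without KO2 replicate 3 or WT replicate 3 (limma, adjusted p up to 0.140). The KO2 call of OAS1 was lost without KO2 replicate 2 or WT replicate 3 (adjusted p up to 0.0554).

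MX1 and BST2 moved in opposite directions in the 2 lines. In OPM2 all 6 knockout libraries lay above WT for MX1 and below it for BST2, and in Delta47 all 6 lay below WT for MX1 and above it for BST2. The share of all genes with such an order over both clones was not counted, so the order is a description. In single OPM2 clones all libraries lay above WT for 39.1% (KO1) and 14.2% (KO2) of all genes, and below for 21.6% and 14.4%. In Delta47 they lay above for 31.8% (KO1) and 34.4% (KO2), and below for 27.8% and 18.7%. In Delta47 limma called MX1 only in KO2 (−0.21, adjusted p = 0.00858, and −0.15, adjusted p = 0.0505 in KO1). The mean log2 difference from WT was 1.00 higher in OPM2 than in Delta47 for MX1, and for BST2 it was −1.27 (OPM2 minus Delta47). The difference between the lines was not tested, since the tables were normalized separately.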

How the results depend on the processing

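The Delta47 counts stayed within 1.5 times of those reported under every alternative run. Leaving out each library in turn gave 21 to 24 members called in Delta47 KO1, 15 to 18 in KO2, 20 to 21 in KO2 against KO1 and 18 to 21 in KO2R against KO2. The OPM2 counts depended on the fit. They were 4 to 5 with each library left out in KO1 against WT, 4 to 12 in KO2 against WT, 5 to 14 in KO2 against KO1, 0 to 2 in KO1EV against KO1 and 1 to 2 in KO1R against KO1EV. Without KO2 replicate 3 and KO1EV replicate 3 they were 17, 14, 15, 8 and 9, beside 58.9%, 41.2%, 67.7%, 32% and 26.4% of all genes called. In a fit limited to the 2 groups set against each other, 16 members were called in KO1, 5 in KO2 against KO1, 1 in KO1EV against KO1 and 6 in KO1R against KO1EV. With no filter on low values 14 were called in KO2 against KO1. For these alternatives and the fits with 1 library left out, shares of all genes called are not given here. Their counts therefore show no gain particular to the members. KO1EV against KO1 gave 1 with a pseudocount of 0.1, with no filter, with quantile scaling and with the replicate block, which moved no other count past 1.5 times. The deviations of libraries with the same number had a mean correlation of 0.115 in OPM2 and 0.016 in Delta47. In OPM2 it reached 0.751, for KO1EV replicate 3 with KO2 replicate 3, the libraries that stand apart. Pairs of unlike number reached 0.623 there. With the block BST2 in OPM2 KO1R against KO1EV and SAMD9 in OPM2 KO1 against WT had an adjusted p of 0.056 and 0.0528. Quantile scaling turned the OPM2 KO1 split of 4 higher and 3 lower into 3 and 4, that of KO2 against KO1 into 8 and 3, and that of KO1R against KO1EV into 2 and 0. The cause was not tested, other than that leaving out libraries or groups changes the shared spread. Of 105 calls of a member in a comparison, 80 kept call and direction under every alternative run. Removing the length trend turned the log2 difference of IFIH1 in Delta47 KO2R against KO2, −0.17, into 0.00034. Changes followed transcript length over all Delta47 genes tested, with a Spearman rho of −0.28 for KO1 against WT, 0.30 for KO2 against KO1 and −0.38 for KO2R against KO2. The depth, which would limit the low members most, is unknown.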

Other observations

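The genes whose Delta47 group means followed those of a member most closely were listed as a description over 4 groups, where many genes can correlate highly by the number of groups alone. For IFITM1 the closest were GSTM4, TUBG1, UBXN2A, NME4 and DTNA (Pearson r of 0.996 to 0.999), and 18 genes were above 0.99. For IRF7 they were APLP1, POLR3D, YBX2, TAF4B and FOXO6, and for IFI27 RALGPS1, DYM, TMEM254, ZNF69 and KCNJ10. In OPM2, over 5 groups, the closest to IFITM1 were CLTB, COPB2, TRMT112, TFPT and CD2BP2 (0.992 to 0.996). No member was among them.

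By position, 13 pairs of members are neighbours or have at most 2 protein-coding genes between them in the RefSeq annotation, among them the IFITM, OAS, IFIT and MX groups. In Delta47 KO2 the IFITM neighbours all fell against WT, while OAS1 fell and OAS2 rose, and MX1 fell and MX2 rose. The OAS1 call was lost without KO2 replicate 2 or WT replicate 3 (limma, adjusted p up to 0.0554). OAS3 was also called higher, but it passed the filter only through KO1 and KO2 libraries, so its rise is a description.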
